A study of Mus musculus with 4 samples.

Results

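Livers of SIRT6Co/Co ;Alb-Cre mice (KO) and WT SIRT6 mice were compared at 2 months of age by subtracting the values of the WT array from those of the KO array. These are 2 of the 4 arrays of the series, chosen by the titles of the samples, and the other 2 hold KO and WT liver at 8 months. In the KO mice a conditional Sirt6 allele was combined with Alb-Cre, a recombinase transgene driven mainly in hepatocytes by the promoter of the albumin gene, so that most other cells of the liver keep Sirt6. Each array was hybridized with RNA combined from 3 pairs of mice, per the series' design text. With 1 array of pooled RNA in each group, no difference at 2 months carries a test, an error or a replicate check. The sources used here do not state sex, feeding, strain background or the time of collection. The values are log2 signals of Affymetrix Mouse Gene 1.0 ST arrays, on which short probes spread along a transcript form a probe set. After averaging the probe sets of a gene, 19938 genes with 1 symbol were measured. The counts below are over the 11963 genes with a 4-array mean above 3.34, which is the 40th percentile. In bulk liver, fewer cells of a type and less RNA per cell cannot be told apart.

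SIRT6 is an NAD-dependent enzyme of chromatin that removes acetyl groups from histone H3 and restrains transcription at many genes, among them genes of glucose and lipid metabolism. The liver holds mostly hepatocytes, which secrete plasma proteins and handle fat, sugar and foreign compounds, together with macrophages, stellate cells, endothelium and bile duct cells. The single Sirt6 probe set did not separate the arrays. It read 4.55 in WT and 4.54 in KO at 2 months, a difference of -0.01, and 4.50 and 4.46 at 8 months. The exons under this probe set are not known here, and the genotypes rest on the labels. Among the 16 nearest measured genes, 8 on each side of Sirt6, the difference at 2 months ran from -0.36 to 0.67. The 6 other sirtuins stayed within 1.5-fold, from 0.34 for the mitochondrial Sirt4 and 0.33 for the nuclear deacetylase Sirt1 to -0.30 for the mitochondrial Sirt3 and -0.38 for the nucleolar Sirt7. Sirt2 was at 0.02 and Sirt5 at -0.12. The tissue read as liver on all 4 arrays. The 25 hepatocyte secreted proteins had mean levels from 11.27 to 11.35 on the 4 arrays, and albumin (Alb) differed by 0.05 and transthyretin (Ttr) by 0.19 between KO and WT at 2 months.

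At 2 months 762 genes (6.37% of those counted) lay at least 1.5-fold apart, 476 of them higher in KO (3.98%) and 286 lower (2.39%), and 52.3% of all genes were higher in KO by any amount. At a 2-fold threshold there were 117 higher (0.978%) and 49 lower (0.41%). Past 4-fold stood 27 genes on the high side (0.226%) and 6 on the low side (0.0502%). The median difference over all genes was 0.01, and 95% of genes lay between -0.58 and 0.70. The SD of the difference over genes was 0.35, against 0.17 between the WT arrays of the 2 ages and 0.19 between the KO arrays of the 2 ages. The arrays thus lay further apart between genotypes at 2 months than between ages within either genotype.

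**Figure D1:**
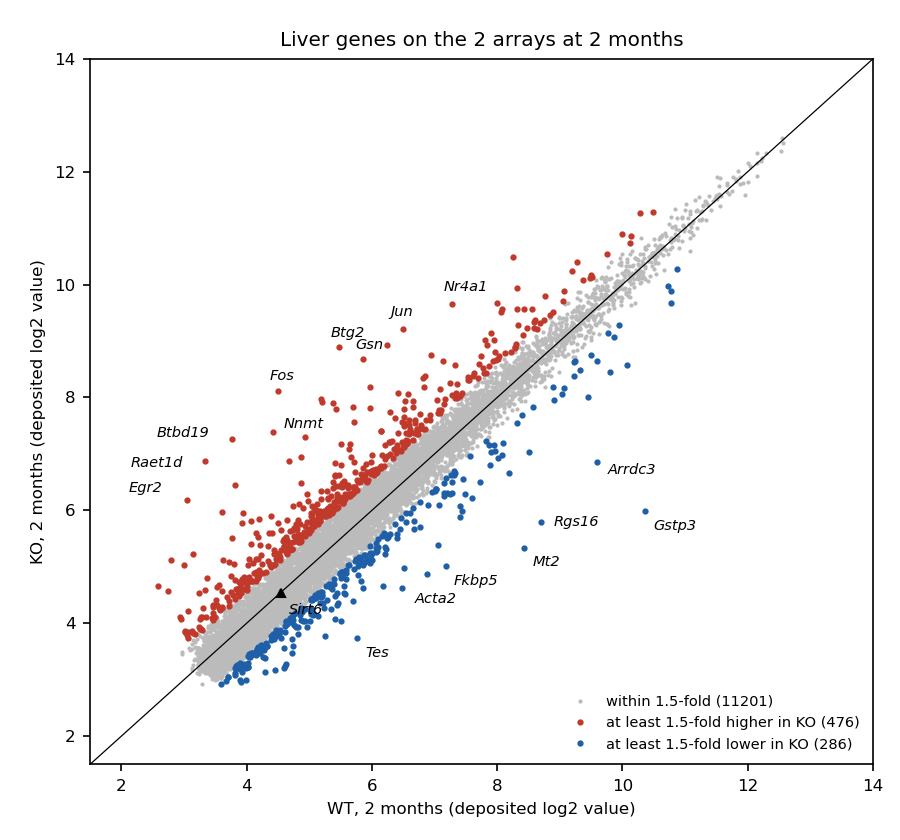
Deposited log2 values of 11963 genes on the WT array (x axis) and the KO array (y axis) at 2 months, with 1 point per gene and the line of equal values. The genes that lie furthest above the line include Fos, Raet1d, Btbd19, Btg2 and Egr2, Gstp3 lies furthest below it at 10.35 in WT and 5.99 in KO, and Sirt6 (triangle) lies on it.

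Immediate early genes, which cells transcribe within minutes of a stimulus without new protein synthesis, were 7 of the 25 highest named genes at 2 months. Of 49 members past the filter, 25 exceeded WT by 1.5-fold or more (51%, against 3.98% of all genes) and 2 lay as far below it (4.08%, against 2.39%). The list median was 0.59, against 0.01 over all genes. Fos, a subunit of the transcription factor AP-1, read 4.49 in WT and 8.12 in KO at 2 months, and 4.39 and 8.17 at 8 months. This is a 12.3-fold difference at 2 months, with both KO arrays far above both WT arrays. Its partner Jun read 6.49 in WT and 9.22 in KO, 6.61-fold apart, and 6.18 and 9.10 at 8 months. Fosb was at a difference of 1.64, Junb went from 5.30 to 6.20 and Jund from 6.72 to 7.44, whereas Fosl2 differed by 0.33. All AP-1 subunits of the list past the filter were above 0, by widely different amounts.

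The zinc finger factor Egr2 read 3.05 in WT and 6.19 in KO at 2 months, and 3.27 and 6.10 at 8 months. Its relative Egr1 read 5.42 and 7.79 at 2 months. The other 2 members of that family did not share the difference, with Egr3 at -0.02 and Egr4 at -0.32. The orphan nuclear receptors were split in the same way, with Nr4a1 at 7.27 in WT and 9.66 in KO, Nr4a3 at 3.46 and 4.18 and Nr4a2 at a difference of -0.24. Btg2, an antiproliferative gene that p53 also induces, read 5.48 in WT and 8.89 in KO, and 5.34 and 8.88 at 8 months. The stress-induced factor Atf3 read 5.21 and 7.92, and 5.17 and 7.93 at 8 months. For both genes the KO arrays lay within 0.1 of each other.

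Other members of the list, among them regulators of signalling and of RNA stability, were higher by at most 1.85. The phosphatase regulator Ppp1r10 was at a difference of 1.85, the nuclear protein Ier2 at 1.84, the polo-like kinase Plk3 at 1.80 and the salt-inducible kinase Sik1 at 1.65. The secreted matricellular protein Ccn1 was at 1.53, the growth arrest gene Gadd45g at 1.52, the small Maf factor Maff at 1.43 and the pseudokinase Trib1 at 1.14. The MAP kinase phosphatases Dusp6 and Dusp1 were at 1.22 and 0.69, and the mRNA decay factor Zfp36 at 1.00. Csrnp1, Myc and Srf were at 1.16, 0.89 and 0.59. The members below 0 show that the list did not move as a whole. Gadd45b read 4.60 in WT and 3.21 in KO, and the TGF-beta-induced factor Klf10 read 6.23 and 5.32. Klf4 was at -0.34 and Dusp5 at -0.32, while Btg1 was just above 0, at 0.02. All 25 members on the high side had both KO arrays above both WT arrays. So did 448 of the 476 genes higher at 2 months (94.1%), since a choice by the 2-month values favours this order. Of the 49 list members 36 showed it and 6 the reverse, against 29.1% and 25.7% of all genes.

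The promoters of 3 early genes on the high side are shown because they hold the sites through which serum and cyclic AMP are known to switch such genes on. Each is the 200 bases before the start in RefSeq's GRCm38.p6, read 5′ to 3′ on the gene's strand. Where several starts were given for a gene, the window with the most matches was taken. Egr2 (chr10:67537366-67537565, plus strand) and Zfp36 (chr7:28379229-28379428, minus strand) hold a CArG box, the site of serum response factor, in capitals. Btg2 (chr1:134079156-134079355, minus strand) holds the cAMP response element TGACGTCA, in capitals.
Egr2: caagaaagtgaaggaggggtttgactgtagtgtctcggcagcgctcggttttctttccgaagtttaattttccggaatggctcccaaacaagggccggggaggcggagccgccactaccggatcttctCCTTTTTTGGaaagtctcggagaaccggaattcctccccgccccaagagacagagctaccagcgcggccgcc
Zfp36: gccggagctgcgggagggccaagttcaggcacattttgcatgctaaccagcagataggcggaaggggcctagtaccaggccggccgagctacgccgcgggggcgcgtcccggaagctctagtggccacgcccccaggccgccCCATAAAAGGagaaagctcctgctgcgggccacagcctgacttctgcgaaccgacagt
Btg2: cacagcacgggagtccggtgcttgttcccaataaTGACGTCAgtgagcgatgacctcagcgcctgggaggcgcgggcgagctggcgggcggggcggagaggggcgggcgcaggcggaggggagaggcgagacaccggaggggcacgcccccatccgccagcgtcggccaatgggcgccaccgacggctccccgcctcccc
The CArG box begins 72 bases before the start in Egr2 and 58 bases before it in Zfp36, and the element of Btg2 begins 166 bases before it. Promoters from 250 bases before to 50 bases after the start were given for 20 of the 25 early genes, and both strands were searched. A CArG box stood in 3 of the 20 (15%: Egr2, Srf and Zfp36), against 1.81% of 27025 genes. TGACGTCA stood in 3 of the 20 (Btg2, Dusp1 and Maff), against 2.03%. Of the other patterns searched, the metal response element, given with Mt2 below, stood in 10 of the 20 (50%), against 28.2%. The heat shock element pattern had a match in 0, and sites that depart from it were not counted. The shares among early genes not on the high side were not taken, so these shares may belong to the list as a whole. A match describes the letters in this window and shows no binding.

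Chaperones of the cytosol were also on the high side. Of 22 heat shock genes, 8 were at least 1.5-fold higher (36.4%, against 3.98% of all genes) and 0 lower (against 2.39%), with a median of 0.45. Dnajb1, a co-chaperone of Hsp70, read 5.97 in WT and 8.18 in KO at 2 months, and 5.90 and 8.21 at 8 months. The inducible Hsp70 gene Hspa1a read 5.39 and 6.40 and the small heat shock protein Hspb1 5.49 and 6.24. Chordc1, Dnajb4 and Dnaja1 were at 0.74, 0.71 and 0.65. The constitutive Hspa8 was at 0.98 as the mean of 3 probe sets, but at 0.38 in its brightest one. Mitochondrial chaperones did not share the difference, with Hspe1 at 0.22, Hspd1 at 0.08 and Hspa9 at -0.01, and the small heat shock protein Cryab was at -0.51. A match to the heat shock element pattern stood in the promoter of Chordc1, against 0.662% of all genes. The other 6 of these genes with a given promoter held no match. Sites that depart from the searched pattern were not counted, so a promoter without a match may still hold such an element.

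In the endoplasmic reticulum, 20 of 22 folding genes were above 0, with a median of 0.35. Among the 22, 3 were at least 1.5-fold higher (13.6%, against 3.98% of all genes). They were the co-chaperone Dnajb9, which read 7.32 in WT and 8.58 in KO and also stands among the heat shock genes, the disulfide isomerase Pdia4 at 0.78, which its brightest probe set gave as 0.38, and Creld2 at 0.73. The master chaperone Hspa5 was at 0.29, the degradation gene Herpud1 at 0.00 and the transcription factor Xbp1 at -0.01. Genes of the integrated stress response, which limits translation and induces amino acid genes, were below 0 in 15 of 21 members, and 11 had both KO arrays below both WT arrays, against 25.7% of all genes. Of the 21 members 1 was at least 1.5-fold higher and 1 lower (4.76% each, against 3.98% and 2.39%), with a median of -0.16. Ddit3, which promotes cell death under stress, read 4.15 in WT and 5.60 in KO, and 4.53 and 5.35 at 8 months. The pseudokinase Trib3 read 5.35 and 4.25. Atf4, the factor that drives the response, was at 0.49, asparagine synthetase (Asns) at 0.07 and the gamma-glutamyl cyclotransferase Chac1 at -0.55. Of 19 p53 targets 3 were at least 1.5-fold higher (15.8%, against 3.98% of all genes) and 0 lower (against 2.39%), with a median of 0.08. Besides Btg2 and Plk3, which are also early genes, this was Trp53inp1, an autophagy gene, at 9.20 in WT and 10.24 in KO. The p53 inhibitor Mdm2 was at 0.08, Bbc3 at -0.33 and Sesn1 at -0.43.

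The genes furthest on the low side included several that glucocorticoids induce. Of 23 such genes 7 were at least 1.5-fold lower (30.4%, against 2.39%) and 3 at least 1.5-fold higher (13%, against 3.98%). Their median was 0.02 and their mean -0.42. The immunophilin Fkbp5, which binds the glucocorticoid receptor, read 7.18 in WT and 5.01 in KO at 2 months, and 7.96 and 4.70 at 8 months. The zinc finger factor Zbtb16 read 6.87 and 4.88, and 7.03 and 5.04 at 8 months. Neither gene's KO values reached its WT values. The other 5 were Mt2, Arrdc3, Arrdc2, Gadd45b and Angptl4, described with their own groups. Other classic targets showed no such gap, with tyrosine aminotransferase (Tat) at 0.15, Tsc22d3 at 0.09, Per1 at 0.58 and the kinase Sgk1 at 0.42, and the receptor Nr3c1 itself was at 0.02. On the high side were the siderophore-binding Lcn2 at 1.12, the insulin receptor substrate Irs2 at 0.96 and Dusp1. Klf9 was at -0.48 and Pck1 at -0.25.

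Arrestin-domain proteins bind membrane receptors and transporters and steer them to degradation, and 3 of the 4 genes past the filter, of 6 measured, stood on the low side. Arrdc3 read 9.60 in WT and 6.86 in KO at 2 months, 6.67-fold apart, and 9.61 and 6.54 at 8 months. Txnip, a glucose-induced inhibitor of thioredoxin and glucose uptake, read 9.44 and 8.01. Arrdc2 read 4.72 and 3.73, whereas Arrdc4, a glucose-induced relative, was at 0.19. The median of these 4 was -1.21, and that of all 6 measured was -0.55.

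Metallothioneins are small proteins that bind zinc and copper and are induced by metals and glucocorticoids. Mt2 read 8.43 in WT and 5.34 in KO at 2 months, an 8.51-fold difference, and 8.82 and 5.11 at 8 months. Its neighbour Mt1 was at -0.07 at 2 months and -0.12 at 8 months. The pair is shown because both promoters hold metal response elements while the arrays separated the groups by Mt2 alone. Matches to TGCACNC or TGCGCNC on either strand are in capitals, within the 200 bases before the start of Mt2 (chr8:94172418-94172617, plus strand) and Mt1 (chr8:94178889-94179088, plus strand).
Mt2: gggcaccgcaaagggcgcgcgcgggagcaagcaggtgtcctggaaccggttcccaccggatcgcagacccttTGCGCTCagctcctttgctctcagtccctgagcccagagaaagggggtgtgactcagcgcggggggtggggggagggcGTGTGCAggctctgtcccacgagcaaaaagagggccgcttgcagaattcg
Mt1: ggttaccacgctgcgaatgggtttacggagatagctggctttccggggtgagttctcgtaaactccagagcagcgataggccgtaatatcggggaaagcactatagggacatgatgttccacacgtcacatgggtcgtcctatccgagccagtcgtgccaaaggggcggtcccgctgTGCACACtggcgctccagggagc
The window of Mt2 held 2 matches and that of Mt1 held 1. Here too the window with the most matches was taken where several starts were given. The counts thus depend on the starts given and do not compare the 2 promoters beyond these windows. In the longer window, 28.2% of all genes with a promoter hold at least 1 match. So did 4 of 7 heat shock genes on the high side (57.1%). Of 18 metallothionein and zinc transport genes, 2 were at least 1.5-fold lower (11.1%, against 2.39% of all genes) and 1 higher (5.56%, against 3.98%), with a median of -0.02. The second on the low side was the zinc importer Slc39a4, at 7.06 in WT and 5.38 in KO, and the one on the high side was the manganese exporter Slc30a10, at 6.93 and 7.60. The metal sensor Mtf1 was at 0.51 and the importer Slc39a14 at -0.04. Each of Mt1 and Mt2 is read by 1 probe set.

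Among the 25 highest and 25 lowest genes, several belong to none of these responses. Gstp3, a pi-class glutathione transferase, had the largest difference of all, with 10.35 in WT and 5.99 in KO at 2 months and 10.27 and 6.02 at 8 months. This is a 20.6-fold difference, and the same-class Gstp1 was at 0.33. Raet1d, a stress ligand of the NKG2D receptor, read 3.34 and 6.88, and 4.01 and 6.40 at 8 months. Btbd19 read 3.76 and 7.26, and 3.88 and 7.25 at 8 months. The actin-severing gelsolin (Gsn) read 5.87 and 8.68, and the lipocalin Obp2a 5.37 and 7.90. Serpina7, the thyroxine-binding globulin, read 6.24 and 8.94, and the elastase inhibitor Serpinb1a 4.87 and 6.95. Gstp3 had both KO arrays below both WT arrays, and the other 6 had both KO arrays above both WT arrays.

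Others on the high side were the ribonuclease P subunit Rpp40 with 3.82 in WT and 6.45 in KO, the hepcidin paralogue Hamp2 with 4.92 and 7.30, the cytochrome Cyp2d12 with 3.61 and 5.98 and the calcineurin regulator Rcan1 with 5.71 and 7.83. Impg2 and Stap1, at differences of 2.07 and 2.03, were dim in WT, at 2.58 and 3.00. On the low side, the G protein regulator Rgs16, which follows the feeding rhythm in liver, read 8.70 in WT and 5.80 in KO. The smooth muscle actin Acta2 read 6.48 and 4.62. The fasting-induced Depp1 read 8.19 and 6.65 and the growth inhibitor Osgin1 7.44 and 5.98. Smooth muscle myosin Myh11 was at -1.36, the C-type lectin Clec2h at -1.33 and the mitochondrial exchanger Slc8b1 at -1.32. The potassium channel Kcnma1 was at -1.46 over 2 probe sets and at -2.85 in the brighter one.

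**Figure D2:**
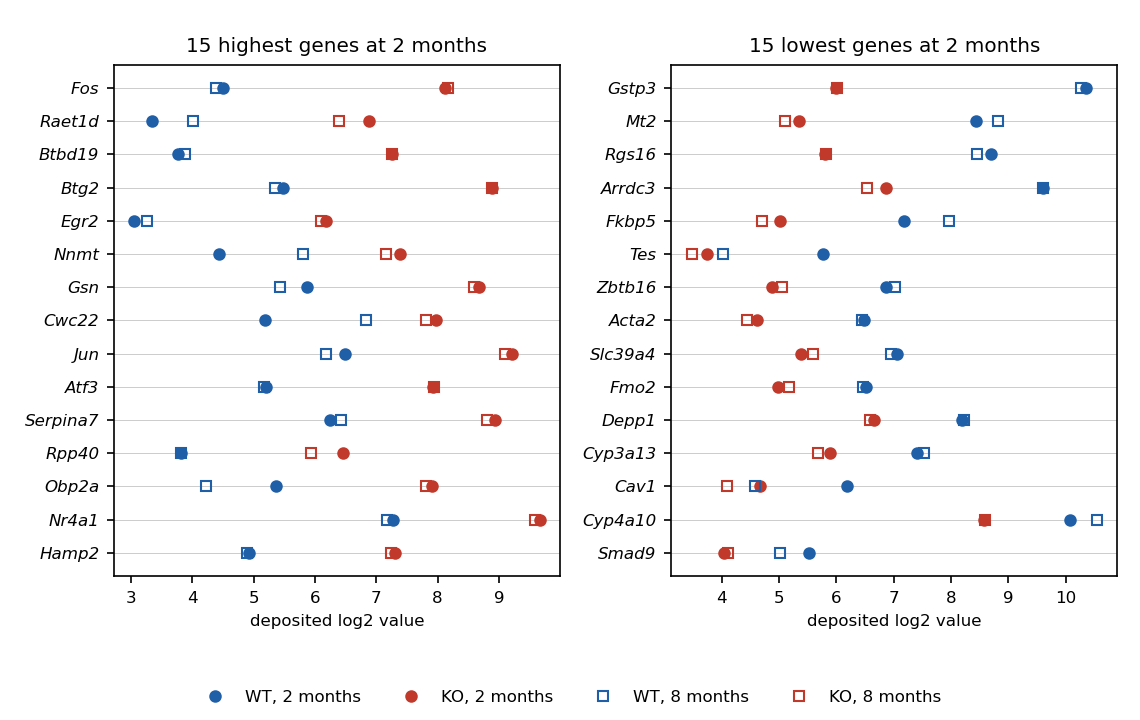
Deposited log2 values (x axis) of the 15 highest and 15 lowest genes at 2 months on each of the 4 arrays, with filled circles for 2 months, open squares for 8 months, blue for WT and red for KO. For most genes the same-coloured symbols lie close together, while Nnmt, Cwc22, Obp2a, Tes and Cav1 have their WT symbols apart, and for Cav1 the KO value at 2 months, 4.66, lies above the WT value at 8 months, 4.58.

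Of 25 fatty acid synthesis genes 5 were at least 1.5-fold higher (20%, against 3.98% of all genes) and 1 lower (4%, against 2.39%), with a median of 0.12, against 0.01 over all genes. Fatty acid synthase (Fasn) read 8.76 in WT and 9.80 in KO, the lipogenic protein Thrsp 8.59 and 9.33, malic enzyme (Me1) 9.48 and 10.13, the elongase Elovl6 7.79 and 8.43, and acetyl-CoA carboxylase (Acaca) 7.36 and 7.99. The mitochondrial isoform Acacb was at -0.58, the desaturase Fads2 at -0.35 and the thioesterase Acot2 at -0.66. The regulator Srebf1 was at 0.38 and the sugar-sensing Mlxipl at -0.21. Of 21 cholesterol synthesis genes 1 was at least 1.5-fold lower (4.76%, against 2.39%) and 6 higher (28.6%, against 3.98%), with a median of 0.24. They were squalene epoxidase (Sqle) at 0.95, Idi1 at 0.72, Pmvk at 0.71, the sterol carrier Stard4 at 0.70, Cyp51 at 0.63 and Lss at 0.61. Of these, Idi1 and Lss were at 0.32 and 0.29 at 8 months. The sterol sensor Scap read 7.82 in WT and 7.23 in KO, and the regulator Srebf2 was at 0.03.

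Of 30 PPAR alpha targets 10 were on the low side by 1.5-fold or more (33.3%, against 2.39% of all genes) and 3 on the high side (10%, against 3.98%), with a median of -0.40. The omega-hydroxylase Cyp4a10 read 10.07 in WT and 8.58 in KO at 2 months, and 10.55 and 8.59 at 8 months. The lipase inhibitor Angptl4 read 7.60 and 6.23, the thioesterase Acot1 7.49 and 6.30, and the retinol saturase Retsat 9.87 and 9.07. Cyp4a31 was at -1.10, Acot3 at -0.77, Cidec at -0.61 and Cyp4a14 at -0.59, and neighbouring Cyp4a genes and thioesterases are close in sequence. The pantetheinase Vnn1, the acyltransferase Mogat1 and the droplet protein Fitm1 were on the high side at 0.74, 0.74 and 0.78. Ppara was at -0.42 and Fgf21 at -0.53. The enzymes of fatty acid oxidation themselves differed little. None of 29 was 1.5-fold apart, the median was -0.01, and the range ran from 0.25 for Decr1 to -0.49 for the rate-limiting Cpt1a.

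Fat uptake and storage genes were mixed. Of 25 genes of triglyceride synthesis and uptake, 2 were at least 1.5-fold higher (8%, against 3.98% of all genes) and 1 lower (4%, against 2.39%). The fatty acid transporter Cd36 read 5.51 in WT and 6.81 in KO, and the binding protein Fabp5 4.44 and 3.76. Pparg was at 0.53 and the acyltransferase Dgat2 at -0.07. Of 19 lipid droplet genes 3 were at least 1.5-fold lower (15.8%, against 2.39%) and 1 higher (5.26%, against 3.98%), with a median of -0.13. G0s2, which inhibits the lipase of droplets, read 8.50 in WT and 7.03 in KO, and Plin4 4.74 and 4.05. Plin5 and Plin1 were both at -0.55 and the main hepatic coat gene Plin2 at -0.01. Of 27 lipoprotein genes 0 were 1.5-fold higher (against 3.98% of all genes) and 4 lower (14.8%, against 2.39%). Among these 4 were Apoa4 at -0.89, Apom at -0.76 and the lipase inhibitor Angptl8 at -0.64. Apob and Apoe were at 0.09 and -0.05.

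Of 26 glycolysis genes 0 were higher and 1 lower (3.85%), the isoform Pkm of non-hepatocytes, with 6.54 in WT and 5.79 in KO at 2 months and 5.92 and 5.76 at 8 months. Liver pyruvate kinase (Pklr) was at 0.58, Pfkfb3 at 0.46, hexokinase Hk2 at -0.52 and Ldha at -0.12. Of 28 genes of gluconeogenesis and glycogen 3 were higher (10.7%, against 3.98% of all genes) and 1 lower (3.57%, against 2.39%). The glycogen-targeting subunit Ppp1r3g read 6.30 in WT and 7.74 in KO, the glucose-6-phosphatase subunit G6pc 10.49 and 11.28, and the coactivator Ppargc1a 4.16 and 4.81. The glucose-6-phosphate transporter Slc37a4 read 9.77 and 9.14. Within the insulin and IGF axis 4 of 30 genes were higher (13.3%) and 3 lower (10%). Igfbp2 read 9.79 in WT and 8.46 in KO, whereas the insulin-repressed Igfbp1 read 9.05 and 9.71. The signalling inhibitor Socs2 was at -0.89 and the kinase subunit Pik3r1 at 0.77. Igf1 was at 0.31 and the insulin receptor Insr at -0.08.

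Of 26 genes of NAD metabolism 1 was higher and 1 lower (3.85% each, against 3.98% and 2.39% of all genes). Nnmt, which methylates nicotinamide, read 4.43 in WT and 7.38 in KO at 2 months, and 5.80 and 7.15 at 8 months. The kynurenine enzyme Afmid read 7.90 and 7.03. Nampt, the rate-limiting enzyme of NAD salvage, was at -0.12. Of 24 circadian clock genes 3 were higher (12.5%, against 3.98% of all genes) and 5 lower (20.8%, against 2.39%). Noct read 6.14 in WT and 7.41 in KO and the repressor Nfil3 6.27 and 7.21. Ciart read 5.57 and 4.53, Usp2 6.41 and 5.59, Per3 and Wee1 were both at -0.59, and Rgs16, given above, was the fifth. Bhlhe40, a repressor of the clock, was at 0.62. The core clock genes Arntl, Clock, Per2 and Nr1d1 were at 0.29, 0.44, -0.03 and -0.41.

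Of 19 glutathione transferases 3 were at least 1.5-fold higher (15.8%, against 3.98% of all genes) and 2 lower (10.5%, against 2.39%), with a median of 0.26. The mu-class Gstm3 read 8.08 in WT and 9.56 in KO, its relatives Gstm5 and Gstm2 were at 0.67 and 0.65, and the 2 on the low side were Gstp3 and Gstt2, the latter at -0.78. Of 25 genes of the antioxidant Nrf2 pathway 1 was higher (4%, against 3.98% of all genes), the efflux pump Abcc4 at 0.99. Another 2 were lower (8%, against 2.39%), Osgin1 and Trib3. Nqo1 was at 0.53, Gclc at 0.38, Hmox1 at 0.25 and Sod1 at -0.13. Of 24 glucuronidation, sulfation and esterase genes 4 were higher (16.7%, against 3.98% of all genes) and 1 lower (4.17%, against 2.39%). Ugt3a1 read 8.32 in WT and 9.57 in KO, Ugt2b35 8.48 and 9.24, the sulfotransferase Sult5a1 5.30 and 6.04, and Ces2e 9.50 and 10.18, whereas Ces3b read 10.72 and 9.97. Of 28 bile acid genes 3 were higher (10.7%) and 1 lower (3.57%). The intestinal-type transporter Slc10a2 was at 0.83 and the reductase Akr1d1 at 0.64, while the 12-alpha-hydroxylase Cyp8b1 was at -0.75. The rate-limiting Cyp7a1 was at 0.47 and -0.31 at 2 and 8 months.

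Of 29 cytochrome P450 genes of families 1 to 3, 7 were at least 1.5-fold higher (24.1%, against 3.98% of all genes) and 1 lower (3.45%, against 2.39%). Cyp2b9 read 8.00 in WT and 9.67 in KO at 2 months, and 7.93 and 9.67 at 8 months, and its neighbour Cyp2b13 read 3.92 and 5.78. Probes may not fully separate these close copies. Cyp2c38 and Cyp2c39 were at 0.95 and 0.79 at 2 months but at -0.07 and -0.12 at 8 months, and Cyp3a11 was at 0.62 and 0.06. Cyp2d40 and Cyp2a22 were at 0.77 and 0.69. Cyp3a13 read 7.41 in WT and 5.88 in KO. The abundant Cyp2e1 and Cyp1a2 were at -0.02 and 0.09. Several of these genes differ between the sexes in mouse liver. Of 16 female-biased genes 4 were higher (25%), all of them Cyp2b or Cyp2c genes just given. The 2 lower (12.5%) were Fmo2, at 6.52 in WT and 4.98 in KO, and Acot3. Of 29 male-biased genes 6 were higher (20.7%) and 1 lower, with a median of 0.33 at 2 months and 0.10 at 8 months. Serpina12 read 7.14 in WT and 8.65 in KO and its neighbour Serpina4-ps1 7.90 and 9.14. Cyp4a12b was at 0.73, Selenbp2 at 0.66, Keg1 at 0.63 and Gna14 at 0.59, and Egfr was at -0.59.

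Transcripts of the sex chromosomes differed between the pools at 2 months. Xist, which is transcribed from the inactive X chromosome of females, read 4.42 in WT and 2.66 in KO, and 3.08 and 2.29 at 8 months. Its mean over the arrays was below the filter. The Y-linked Eif2s3y read 7.04 in WT and 7.43 in KO, Uty 6.18 and 6.63 and Kdm5d 5.57 and 5.64. Of 8 measured sex markers 4 passed the filter, and none of these 4 was 1.5-fold apart. The part of these differences in the sex-biased genes was not tested.

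The main secreted proteins of hepatocytes differed little. Of 25 hepatocyte secreted proteins none was 1.5-fold apart, and the range was from 0.19 for Ttr to -0.32 for the fibrinogen chain Fga. Of 27 acute phase proteins 4 were higher (14.8%, against 3.98% of all genes) and 1 lower (3.7%, against 2.39%). Apcs, the serum amyloid P component, read 8.07 in WT and 9.51 in KO, and the orosomucoids Orm3 and Orm2 read 4.87 and 6.49, and 5.41 and 6.83. The third orosomucoid, Orm1, was at 0.23, and the receptor subunit Il6ra read 7.46 and 6.55. Of 32 serpins and clotting genes 4 were higher (12.5%), Serpina7, Serpinb1a, Serpina12 and Serpina4-ps1. Another 2 were lower (6.25%), coagulation factors F11 at -0.90 and F3 at -0.69. Antithrombin (Serpinc1) was at 0.02. None of 26 complement genes was 1.5-fold apart, from 0.57 for C1s1 to -0.53 for Hc. Of 27 genes of hepcidin and iron 3 were higher (11.1%, against 3.98%), Hamp2, Lcn2 and the metalloreductase Steap4 at 8.56 in WT and 9.56 in KO. Another 1 was lower (3.7%, against 2.39%), the BMP target Id1 at -0.77. Hamp itself was at 0.33 and the transferrin receptor Tfrc at 0.33.

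Among immune genes, 4 of 29 interferon-stimulated genes were at least 1.5-fold higher (13.8%, against 3.98% of all genes) and 0 lower, with a median of 0.22. Ifi27 read 6.66 in WT and 7.93 in KO, its neighbour Ifi27l2b 5.42 and 6.63, the GTPase Iigp1 7.97 and 8.80, and the chemokine Cxcl9 3.26 and 4.11. The transcription factor Irf7 was at 0.35 and the immunoproteasome subunit Psmb8 at -0.43. Of 19 antigen presentation genes 2 were higher and 2 lower (10.5% each, against 3.98% and 2.39% of all genes). The higher were Raet1d and the invariant chain Cd74 at 0.89, and the lower H2-Eb1 at -0.97 and the peptide transporter subunit Tap2 at -0.66. Of 22 NF-kB targets 1 was higher (4.55%, against 3.98%), Il1b at 4.18 in WT and 5.14 in KO. In that list 0 were lower (against 2.39%), with the inhibitor Nfkbia at -0.39. Of 24 hypoxia genes adrenomedullin (Adm) was higher at 0.63 (4.17%, against 3.98%) and none lower (against 2.39%), with Hif1a at 0.27 and Vegfa at -0.13.

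Some markers of mesenchymal cells stood on the low side in KO at 2 months. The WT array at 2 months was the highest of the 4 for all 12 markers at least 1.5-fold lower. The choice of these 12 by their 2-month difference favours that order. For Acta2 the WT arrays read nearly alike, 6.48 at 2 months and 6.45 at 8 months. Of 46 stellate cell and mesenchymal markers, 12 were at least 1.5-fold lower (26.1%, against 2.39% of all genes) and 1 higher, with a median of -0.12. Of the 12, 1 was also 1.5-fold lower at 8 months, Acta2. The focal adhesion gene Tes read 5.76 in WT and 3.74 in KO at 2 months, and 4.02 and 3.47 at 8 months. Caveolin 1 (Cav1) read 6.18 and 4.66, and 4.58 and 4.10 at 8 months. Vimentin (Vim) read 7.72 and 6.50, and 6.71 and 6.20 at 8 months. For these genes the WT pool at 2 months stood apart from the other 3 arrays. Collagens gave smaller gaps, with Col1a2 at 6.22 in WT and 5.23 in KO, Col1a1 at 6.09 and 5.28, Col6a1 at 5.21 and 4.37 and Col3a1 at 5.99 and 5.24, against 8-month differences of -0.45, -0.30, -0.32 and -0.24. Anxa2, Emp1, Timp2 and Anxa1 were at -1.01, -0.90, -0.80 and -0.74. Over the 12 genes the median change from 2 to 8 months was -0.67 between the WT arrays and -0.19 between the KO arrays. Over all 46 markers, which were not picked by their values, it was -0.24 and -0.09.

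Not every mesenchymal marker took part. Markers that define stellate cells were near 0 or above it, with Lrat at 0.26, Reln at 0.32, Des at 0.03 and Hgf at 0.44, and so were Dcn at 0.12 and Pdgfrb at 0.12. Col4a2 and Ccn2 were at 0.49 and 0.48, and Gsn was the 1 member on the high side. The mean level of the 46 markers was 5.73 in WT and 5.51 in KO at 2 months, and 5.39 and 5.41 at 8 months. The part of these markers in the differences of other genes was not tested.

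**Figure D3:**
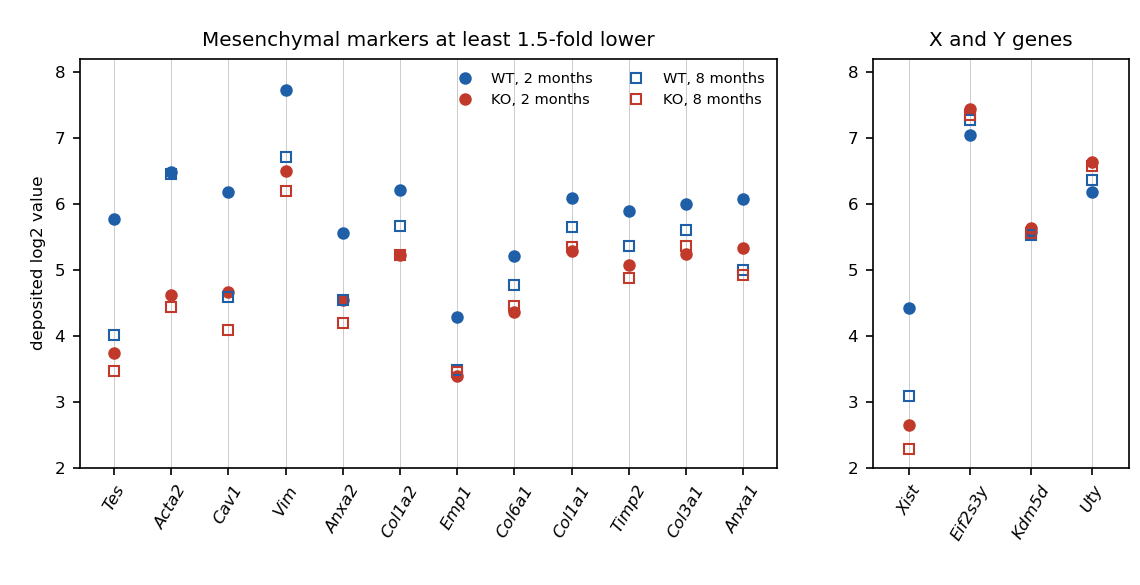
Deposited log2 values (y axis) of the 12 mesenchymal markers at least 1.5-fold lower in KO at 2 months (left) and of 4 sex-chromosome genes (right) on each array, with filled circles for 2 months, open squares for 8 months, blue for WT and red for KO. For Tes, Cav1, Vim and Anxa1 the WT value at 2 months lies above the other 3, for Acta2 both WT values lie above both KO values, and Xist was highest in WT at 2 months, at 4.42.

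Of 20 Kupffer cell and macrophage markers 1 was higher (5%, against 3.98% of all genes), the scavenger receptor family member Cd5l at 5.61 in WT and 6.45 in KO, and 2 were lower (10%, against 2.39%), the lysozyme Lyz2 at 7.19 and 6.57 and the chemokine receptor Cx3cr1 at 3.90 and 3.20. The resident macrophage markers Vsig4, Timd4, Adgre1 and Clec4f were at 0.51, 0.46, 0.14 and -0.04. Of 32 endothelial markers 2 were higher (6.25%, against 3.98%), Lyve1 at 0.63 and Adcy4 at 0.59, with Kdr at -0.10 and Stab2 at -0.04. Of 11 cholangiocyte markers 1 was higher and 1 lower (9.09% each, against 3.98% and 2.39%), the factor Onecut1 at 0.81 and Krt23 at -0.74. The duct keratins Krt19 and Krt7 were at 0.09 and -0.18. None of 5 lymphocyte and neutrophil markers was 1.5-fold apart, with Ptprc at 0.42 and Cd3e at -0.41. Of 7 erythroid genes 2 were higher (28.6%, against 3.98%), Car1 at 0.73 and Alas2 at 0.63, with Klf1 at -0.43. Of 14 muscle, fat and pancreas markers only Clps was 1.5-fold lower (7.14%, against 2.39% of all genes), at -0.59. It is the next gene past the filter after Fkbp5 on the chromosome.

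Of 34 hepatocyte transcription factors and nuclear receptors 1 was higher (2.94%, against 3.98% of all genes), Onecut1. Another 2 were lower (5.88%, against 2.39%), the xenobiotic receptor Nr1i3 with 9.60 in WT and 8.64 in KO and Foxa2 with 5.40 and 4.79. Hnf4a was at -0.03 and Cebpa at 0.04. Of 33 pericentral genes 2 were higher (6.06%, against 3.98%) and 1 lower (3.03%, against 2.39%). The higher were Gstm3 and the Wnt receptor partner Lgr5 at 4.16 in WT and 4.91 in KO. The 1 on the low side was the Wnt inhibitor Notum, which read 6.22 and 5.35 at 2 months and 5.89 and 5.75 at 8 months. Glul and Axin2, other Wnt-dependent genes of the central vein, were at 0.20 and -0.15. Of 38 periportal, urea cycle and amino acid genes 0 were higher (against 3.98%) and 3 lower (7.89%, against 2.39%). The 3 were the mitochondrial carrier Slc25a47 at -1.10, proline dehydrogenase (Prodh) at -0.71 and the urea cycle enzyme Asl at -0.65. Cps1 and Arg1 were at -0.19 and -0.24.

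None of 47 cytosolic ribosomal proteins was 1.5-fold apart, with a median of 0.00 and a range from 0.55 for Rpl34 to -0.36 for Rps19. Of 72 oxidative phosphorylation genes 2 were higher (2.78%, against 3.98% of all genes), the complex I subunit Ndufb3 at 0.68 and cytochrome c (Cycs) at 0.63. In that list 0 were lower (against 2.39%), with a median of 0.00. Of 24 cell cycle genes 0 were higher and 2 lower (8.33%, against 2.39%), E2f8 at 4.81 in WT and 3.80 in KO and Ect2 at 4.27 and 3.56. Ccnd1 was at 0.32 and Pcna at 0.03. Of 32 DNA repair genes 1 was higher (3.12%, against 3.98%), the end-joining factor Xrcc4 at 5.40 and 6.14, and 0 were lower (against 2.39%). Xrcc6, Ogg1 and Msh6, of end joining, base excision repair and mismatch repair, were at 0.01, 0.01 and 0.00.

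**Figure D4:**
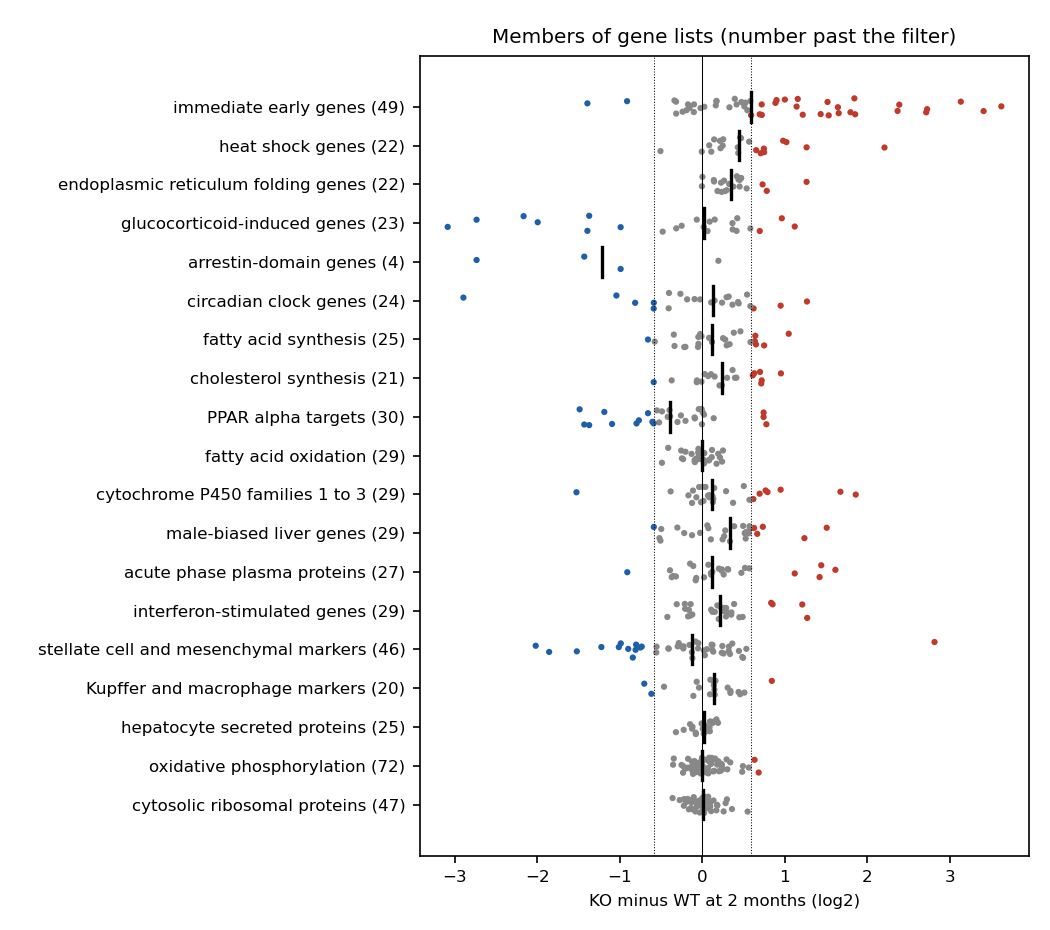
KO minus WT at 2 months (x axis, log2) for each member past the filter of 19 gene lists, with 1 point per gene, red at least 1.5-fold higher and blue at least 1.5-fold lower, a black bar at the list's median and dotted lines at 1.5-fold. Immediate early genes reach 3.62 with a median of 0.59, PPAR alpha targets have a median of -0.40, and oxidative phosphorylation and ribosomal protein genes lie around 0.

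The pair of arrays at 8 months shares no array with the pair at 2 months and gives a second set of values in other pools. There 519 genes (4.34%) lay 1.5-fold or more apart, 288 on the high side (2.41%) and 231 on the low side (1.93%), and 2-fold apart were 93 (0.777%) and 57 (0.476%). Of the 476 genes higher at 2 months, 213 were also higher at 8 months, 44.7% of the 2-month genes, 74% of the 8-month genes and 1.78% of all. On the low side 127 were shared, 44.4% and 55% of the lists and 1.06% of all. The genes higher at 2 months had a median difference of 0.76 at 2 months and 0.53 at 8 months, and those lower had medians of -0.72 and -0.52. Since these genes were picked by their values at 2 months, a smaller median at 8 months comes with that choice. The 8-month difference was above 0 for 448 of the 476 (94.1%) and below 0 for 252 of the 286 (88.1%).

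Some genes were 1.5-fold apart at 2 months and within 0.2 of equal at 8 months, 81 on the high side and 64 on the low side. For these the array furthest from the middle of the other 3 was KO at 2 months for 59 and 35 genes and WT at 2 months for 22 and 29. The genes with the largest excess at 2 months on the high side, taken among those at least 2-fold apart, had their lowest value on the WT array at 2 months. Picking genes by a 2-month difference that exceeds the 8-month one favours an outlying value at 2 months. Fam171b read 2.79 in WT and 5.12 in KO at 2 months, and 4.34 and 4.93 at 8 months. The splicing factor gene Cwc22 read 5.18 and 7.97, and 6.84 and 7.82 at 8 months. Of its 8 probe sets, 7 held identical values on each array, with a difference of 3.08, and the other was at 0.70, so the gene's mean rests on probe sets that are not independent. Rasgef1b read 4.67 and 6.88, and 5.42 and 6.53 at 8 months. Them7 and Zfp971 were at 1.14 and 1.45 at 2 months and 0.14 and 0.25 at 8 months. Rdh18-ps, Orm3, Lonrf1, Fam81a and Zfp948 were also among the 12 on the high side, the last of these with 4.65 in KO at 2 months and between 3.53 and 3.96 on the other arrays.

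The 12 on the low side were led by Tes, Il34, Htra1 and Cav1. The cytokine Il34 read 4.59 in WT and 3.57 in KO at 2 months, and 3.93 and 4.01 at 8 months. The protease Htra1 read 4.74 and 3.60, and 3.48 and 3.38 at 8 months. The actin bundler Fscn1 was at -1.03 and -0.06 at the 2 ages, the nucleotide carrier Slc25a4 at -1.12 and -0.31 and carboxypeptidase E (Cpe) at -1.27 and -0.67. Smad9, Vim, Anxa2, Trib3 and Myh11 completed them. In each of these 12 genes the WT array at 2 months read above the other 3, an order that the way they were picked favours. The differences at the 2 ages had a Pearson r of 0.68 across genes. Genes share arrays and are no independent replicates.

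**Figure D5:**
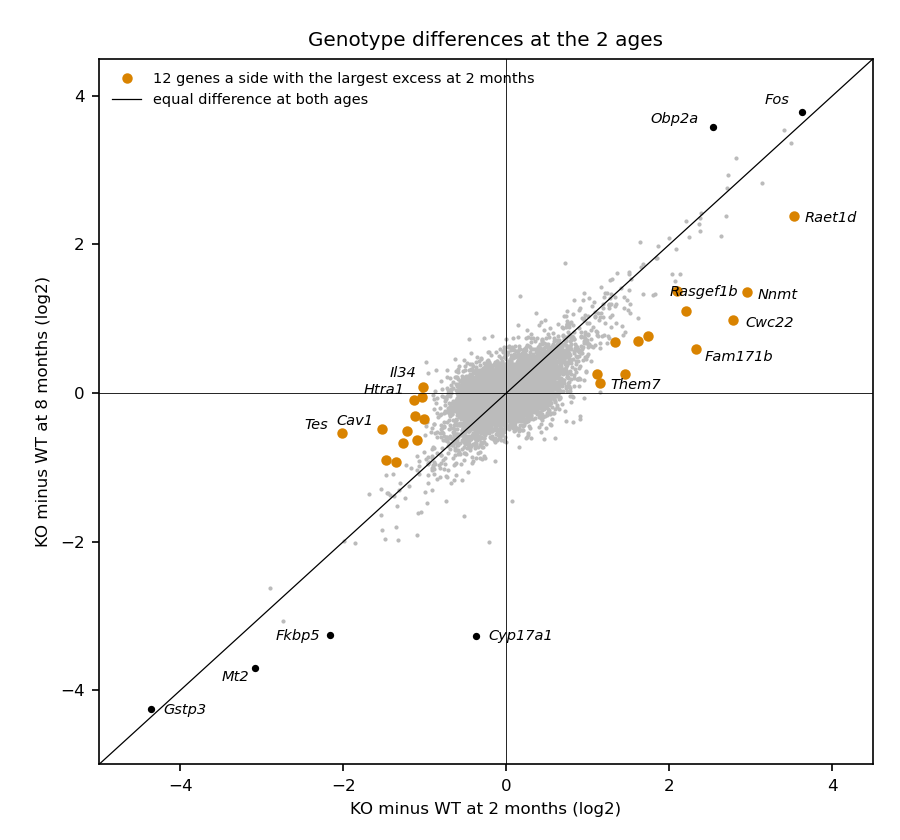
KO minus WT at 2 months (x axis) and at 8 months (y axis), both log2, for 11963 genes, with 1 point per gene and the line of equal differences. Fos and Gstp3 lie near the line, the 24 genes in orange have the largest excess at 2 months, and Cyp17a1 lies far below the line, at -0.37 and -3.27.

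Neighbouring genes were apart together in some places. Pairs were formed with the next gene past the filter on the chromosome, so genes below the filter that lie between were skipped. Of 757 genes 1.5-fold apart with such a next gene, 72 had one that was also 1.5-fold apart. This is 9.51%, against 6.36% of all placed genes past the filter. Of the 72 pairs 51 had the same direction. Same-direction pairs included Btbd19 with Plk3, Rpp40 with Ppp1r3g, Stap1 with Uba6, and G0s2 with Lamb3, which was at -0.77. Others were members of the same family, such as Gstm3 with Gstm2, Cyp2b13 with Cyp2b9, Orm3 with Orm2 and Acot2 with Acot1. Probes may not fully separate such close copies. Hspa8 was paired with a small nucleolar RNA. The part of such pairs in these counts was not tested. Nnmt and Zbtb16 formed a pair with opposite directions. Of 40 small nucleolar RNAs past the filter 8 were higher and 2 lower, against 3.98% and 2.39% of all genes. They ran from -0.92 to 2.24, with a median of 0.10. At 8 months 3 were higher and 3 lower, with a median of 0.01. For 753 genes with more than 1 probe set, the SD between probe sets of the 2-month difference had a median of 0.11. All 41 of them that were 1.5-fold apart by their mean had the same sign in every probe set. Picking these genes by the mean of the same probe sets favours that agreement. In addition, 31 of the 753 genes held probe sets with identical values. Among probe sets without exactly 1 symbol, 11.5% of 6041 above the filter level were 1.5-fold or more higher in KO and 7.55% lower. These are single probe sets, whereas the 3.98% and 2.39% are of genes averaged over probe sets.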

How the data were processed

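The 4 arrays hold pooled liver RNA of WT and KO mice at 2 ages. The authors deposited log2 values. Their software, per the submitters' processing notes, was Affymetrix Expression Console 1.0v, and the summary method was RMA, which corrects background, quantile normalizes and combines probes, and so compresses differences of dim genes. Base 2 follows from RMA, since the table states none. Array annotation and genome build are not given in the sources used here. An array has no read depth, and the number of arrays limits the precision.

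Of 35556 probe sets, 21789 with 1 gene symbol were averaged per gene, 1621 had several symbols and 12146 were not listed. Symbols were checked against RefSeq's GRCm38.p6 table, which changed 0, and 91 probe sets had no match. Genes above the 40th percentile of the mean over the 4 arrays were kept, and KO minus WT was taken on the log2 scale. No model was fitted, because each group is 1 array. The self-test on simulated arrays checked the filter and the counts. Alternatives were no filter and a stricter filter, the 2-fold threshold, median centring, quantile normalization, cyclic loess (limma 3.58.1, R 4.3.3), the brightest probe set and the mean of list members.

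The comparison, its 52 gene lists and the rule for named genes were chosen with earlier results of these data known. Named are the sirtuins, the 25 highest and 25 lowest genes, the 12 genes a side with the largest excess at 2 over 8 months among genes 2-fold apart, list members 1.5-fold apart, and the 3 highest, 3 lowest and nearest-0 members of each list. Other genes named were chosen after their values were seen, and the groups of neighbours, small nucleolar RNAs and probe sets were added then. Predicted genes and small RNAs were counted, not named. Some genes are not analysed here.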

Additional observations from a re-analysis of the deposited data

Results flagged for a closer look

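Adcy4, an adenylate cyclase listed among the endothelial markers, was at 0.59 for KO minus WT at 2 months and at -0.60 at 8 months, the single gene at least 1.5-fold apart in opposite directions at the 2 ages. Its levels were 4.32 in WT and 4.91 in KO at 2 months, and 4.89 and 4.29 at 8 months. The difference between the ages was not tested, since each group is 1 array.

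Probe sets outside the gene table also separated the arrays. Of 13767 probe sets without exactly 1 symbol, 6041 exceeded the filter level, and 80 of these were at least 2-fold higher in KO at both ages and 23 at least 2-fold lower. At 2 months alone 696 (11.5%) were at least 1.5-fold higher and 456 (7.55%) lower, against 3.98% and 2.39% of genes. The shares are not like for like, since these are single probe sets that were not averaged per gene. Of the 13767, 12146 were not listed with any symbol. The highest was at 3.81 at 2 months and 3.37 at 8 months, and the lowest at -2.31 and -2.46. They are unnamed here.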

How the results depend on the processing

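Each array lacks a replicate, so leaving out a replicate was not possible. No paired analysis was possible because each group has 1 array. The counts of 476 higher and 286 lower genes stayed within 1.5 times under median centring (566 and 225), repeated quantile normalization (380 and 324), cyclic loess (429 and 285), the brightest probe set (484 and 297) and no filter (502 and 361). The higher genes' share of all calls was 62.5% at the main setting, 71.6% after median centring, 54% after quantile normalization and 69.4% with the filter at the 60th percentile. That filter left 170 lower genes, and the 2-fold threshold gave 117 higher and 49 lower. Of the named genes 6 moved by 0.22 or more, all with the choice of probe set, and none of those 1.5-fold apart changed sign, while Sirt6, near 0, was at 0.03 after median centring.

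List medians at 2 months moved by 0.1 or more in these cases. With the filter at the 60th percentile, immediate early genes were at 0.89, p53 targets at 0.46, arrestin-domain genes at -1.43, female-biased genes at 0.50, sex markers at 0.39, antigen presentation at -0.042, cholangiocyte markers at 0.36, lymphocyte and neutrophil markers at 0.42 and erythroid markers at 0.63, and cell cycle genes at 0.21. Of these the cholangiocyte, lymphocyte and cell cycle medians changed sign. With no filter, arrestin-domain genes were at -0.55, female-biased genes at 0.0032 and sex markers at 0.067. After quantile normalization, glucocorticoid-induced genes changed sign to -0.085, and PPAR alpha targets were at -0.50. The mean in place of the median gave 0.87 for immediate early genes, 0.41 for p53 targets, -0.42 for glucocorticoid-induced genes, -0.20 for metallothioneins and zinc transport, -0.11 for lipoproteins, 0.0075 for glutathione transferases, 0.090 for the Nrf2 pathway, 0.26 for P450 genes, 0.22 for female-biased genes, 0.15 for hepcidin and iron, 0.23 for acute phase proteins, 0.17 for serpins and clotting and -0.15 for muscle, fat and pancreas markers. Clock genes were at -0.043 and antigen presentation at 0.091. The mean changed the sign of these last 2 and of the glucocorticoid-induced and lipoprotein genes. The filters test fewer or more genes, and the cause of the other shifts was not tested.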
